A study of Homo sapiens with 12 samples.

Results

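The 10 genes described here encode the cyclins, cyclin-dependent kinases (CDKs) and RB proteins that control passage from G1 into S phase. They were taken by symbol from the 18764 genes of the deposited data. They are the D-type cyclin genes CCND1, CCND2 and CCND3, the E-type cyclin genes CCNE1 and CCNE2, the kinase genes CDK4, CDK6 and CDK2, and the RB family genes RB1 and RBL1. The study used established cell lines of intrahepatic cholangiocarcinoma (ICC), a bile duct cancer of the liver, and their RNA was sequenced 48 h after transfection. The lines were HuH-28, RBE and SSP-25. LKB1 is a kinase encoded by STK11, and all 3 lines were described by the study as competent for it. In each line, 2 libraries came from cells given LKB1 siRNA and 2 from cells given a scrambled control siRNA, which makes 6 groups and 12 libraries.

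In G1, D-type cyclins bind CDK4 or CDK6, and E-type cyclins bind CDK2. Both kinds of complex phosphorylate RB1 and its relatives RBL1 (p107) and RBL2 (p130), which otherwise hold E2F transcription factors in check on genes of DNA replication. INK4 proteins block CDK4 and CDK6, and KIP proteins block CDK2. CCND1 is a target of several growth factor pathways and is amplified or overexpressed in many carcinomas, and CCNE1 and RBL1 are themselves E2F targets.

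Each value is a signal, the authors' normalized reads per kilobase, which is already divided by transcript length. Library sums ran from 9918899 to 11748262, and how many reads lie behind them is unknown. A gene passed a comparison at an adjusted p under 0.05 with limma on log2(signal + 0.5) over 16120 genes, and "rose", "fell", "higher" and "lower" of a tested gene mean that it passed. An exact test within a line, with 2 libraries on either side, could not reach a two-sided p under 0.33, so each line was judged by the spread pooled over all groups. The labels do not say whether replicates were separate cultures, and the paper calls them the first and the second test, so a p-value here covers the spread between libraries only. Values with the replicate number as a block are given where they change a call. STK11, the targeted gene, had signals of 222.6 and 206.5 in HuH-28 with LKB1 siRNA against 698.0 and 600.4 with control siRNA. Its log2 fold change was -1.59 in that line, -1.68 in RBE and -2.77 in SSP-25. HuH-28 libraries had 3 of 5 biliary markers at a mean signal of 20 or more (KRT19 and EPCAM were under it) and 5 of 6 fibroblast markers. RBE and SSP-25 libraries had 5 of 5 biliary markers, and fibroblast markers at that level were 1 of 6 in RBE and 3 of 6 in SSP-25. The leukocyte marker CD68 reached it in every line and CD14 in SSP-25 with LKB1 siRNA. The endothelial marker KDR reached it in HuH-28. The summed fibroblast signal was 11100 to 11502 with LKB1 siRNA and 6607 to 7019 with control siRNA in SSP-25, and the summed biliary signal also differed there (10689 to 10903 against 7082 to 7400.5). That fibroblast sum was mostly COL1A1 (10950 and 11339 with LKB1 siRNA, 6952 and 6538 with control siRNA). COL1A1, COL1A2 and PDGFRB rose in SSP-25, and COL3A1, DCN and LUM did not pass. In HuH-28 the summed biliary signal was 3206 to 3372 with LKB1 siRNA and 2639.7 to 2716 with control siRNA, while the fibroblast sums overlapped. Within the HuH-28 fibroblast sums COL1A1 rose (log2 fold change 0.40), as did PDGFRB (1.12). COL1A2, COL3A1, DCN and LUM had negative log2 fold changes there that did not pass. In RBE the biliary sum was 25065 to 25202 against 26725 to 28097, and the low fibroblast sum 77.9 to 84.7 against 55.7 to 59.0. The part of these markers in the results below was not tested in any line.

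Promoters are shown for 3 members that the results turn on: RBL1, which rose in SSP-25, CCNE1, which moved in opposite directions in different lines, and CDK6, which fell in every line. Each runs from 250 bases before to 50 after the gene's start in RefSeq (GRCh38.p14), written 5′ to 3′ on the gene's strand. Capitals mark an E2F motif (TTTCCCGC, TTTCGCGC, TTTGCCGC or TTTGGCGC, on either strand) or a GC box (GGGCGG or CCGCCC), and no marked matches overlap.
RBL1 (chr20:37095948-37096247, minus strand): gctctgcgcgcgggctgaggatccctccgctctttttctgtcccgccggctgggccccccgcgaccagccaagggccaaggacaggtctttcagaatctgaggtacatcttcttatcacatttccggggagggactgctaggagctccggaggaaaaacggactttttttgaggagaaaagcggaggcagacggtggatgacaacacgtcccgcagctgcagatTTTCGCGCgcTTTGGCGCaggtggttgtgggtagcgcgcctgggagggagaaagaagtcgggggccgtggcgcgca
CCNE1 (chr19:29811741-29812040, plus strand): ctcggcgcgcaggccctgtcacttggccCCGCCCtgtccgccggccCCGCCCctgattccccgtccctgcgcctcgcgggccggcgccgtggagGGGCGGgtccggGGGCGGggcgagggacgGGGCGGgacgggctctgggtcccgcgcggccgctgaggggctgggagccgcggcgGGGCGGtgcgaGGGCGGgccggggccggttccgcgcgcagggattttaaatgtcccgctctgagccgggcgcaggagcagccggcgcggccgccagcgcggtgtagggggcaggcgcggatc
CDK6 (chr7:92836524-92836823, minus strand): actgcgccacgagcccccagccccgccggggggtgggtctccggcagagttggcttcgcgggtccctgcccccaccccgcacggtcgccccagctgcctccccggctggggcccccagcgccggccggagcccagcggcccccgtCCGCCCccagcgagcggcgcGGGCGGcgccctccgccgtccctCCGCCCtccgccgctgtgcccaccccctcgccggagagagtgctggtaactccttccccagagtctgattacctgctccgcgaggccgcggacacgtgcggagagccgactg
The RBL1 window held both E2F matches, 26 and 16 bases before the start, and no GC box. The CCNE1 window held 7 GC boxes and the CDK6 window 3, and neither held an E2F match. The promoter set used had windows for 6 members, RB1 among them, and none for CCND1, CCND2, CCNE2 and CDK2. Of the 6, 1 held the E2F motif and 4 a GC box, against 4.66% and 64.4% of 11733 promoters of tested genes. The RB1 window, which held neither, began at 48476200, inside the gene's GENCODE span and away from its start, so it does not show the promoter at that start. A match is a description of these letters and no evidence of binding.

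With LKB1 siRNA, CDK6 and CDK2 mRNA was lower and CCND1 mRNA higher than with control siRNA on average over the 3 lines, and for these 3 genes every library given one siRNA was apart from every library given the other in each line. CCNE1 moved in opposite directions, lower in HuH-28 and higher in RBE and SSP-25. Each change was less than 1 on the log2 scale. Of the 9 members tested, 0 were higher and 4 lower in HuH-28, where 14.3% of all genes were higher and 15.5% lower. In RBE 1 was higher and 4 lower, against 22.1% and 18.5% of all genes. In SSP-25 3 were higher and 3 lower, against 21.1% and 21.1%. For the mean of the lines 2 were higher (CCND1 and CCNE1) and 5 lower (CDK6, CDK2, CCNE2, RB1 and CDK4), against 27.3% and 25.1%. The median log2 fold change of the members was -0.07 in HuH-28, -0.11 in RBE, -0.09 in SSP-25 and -0.16 on average, and that of all genes lay between 0.01 and 0.03. Separate libraries of the 2 siRNAs in every line were common over all genes, with 13.6% of genes higher and 13.9% lower in that way. Such separation always gives the smallest possible p, 0.0093, in the exact permutation of labels within lines used below. For such genes this p, which is not adjusted, adds nothing to the separation. In bulk RNA, a change in the share of cells that express a gene cannot be told apart from a change within each cell.

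**Figure D1:**
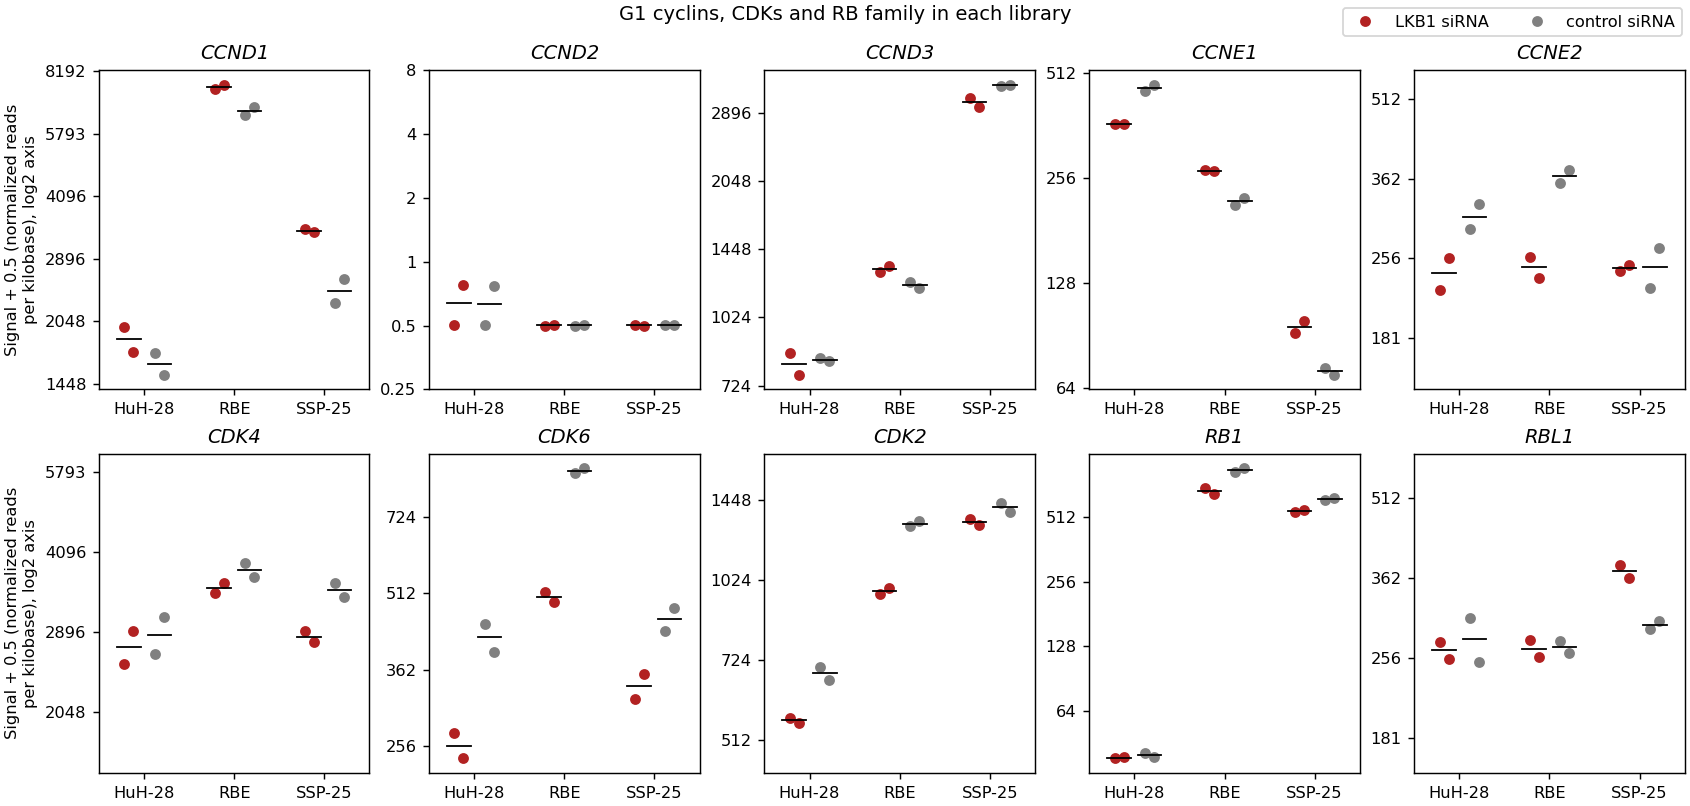
Signal plus 0.5 (normalized reads per kilobase, log2 axis) of each member in each library, with LKB1 siRNA in red at the left and control siRNA in grey at the right of each line, and bars for the mean of 2 libraries. The LKB1 siRNA points lie below the control points for CDK6 and CDK2, and above them for CCND1, in each line, whether or not the difference passed. RB1 in HuH-28 lies near 38 in all 4 libraries.

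CCND1 (chromosome 11, forward strand, 69641087 to 69654474 in GENCODE v29 on GRCh38) was the most abundant D-type cyclin gene in HuH-28 and RBE with either siRNA. In RBE its signal was 7425 and 7602 with LKB1 siRNA against 6414 and 6719 with control siRNA, the highest of the 3 lines. In SSP-25 it was 3405 and 3355.5 against 2267 and 2579, and in HuH-28 1983 and 1729 against 1714 and 1519. The LKB1 siRNA libraries lay above the control libraries in each line. The rise passed in SSP-25 at 0.48 on the log2 scale (standard error, SE, 0.09, limma adjusted p = 0.00141). It did not pass in HuH-28 (log2 fold change 0.20, limma adjusted p = 0.115) or RBE (0.19, adjusted p = 0.1). With the replicate block it passed in both (limma adjusted p = 0.0218 and 0.0183), and it also passed in HuH-28 without LKB1 siRNA replicate 2 (0.0407) and in RBE with that line fitted alone (0.00764). Averaged over the lines it was 0.29 (SE 0.05, limma adjusted p = 0.000675), and the exact permutation of labels within lines gave its smallest possible two-sided p of 0.0093. The difference of the effect between lines did not pass (limma's F test, adjusted p = 0.142), but passed with the replicate block (0.0275).

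CCND3, the D-type cyclin of lymphoid and many epithelial cells, was highest in SSP-25. There its signal was 3130.2 and 2981.5 with LKB1 siRNA against 3325 and 3343 with control siRNA, a log2 fold change of -0.13 (limma adjusted p = 0.107). In RBE it was 1288 and 1332.5 against 1226 and 1190.0 (0.12, adjusted p = 0.135), and in HuH-28 853.8 and 764.6 against 831.8 and 820.0 (-0.03, adjusted p = 0.736). CCND3 passed in no line in this fit, but with each line fitted alone it passed upward in RBE (limma adjusted p = 0.0459) and downward in SSP-25 (0.0266). The SSP-25 difference also passed without HuH-28 LKB1 siRNA replicate 1 (0.0414) or 2 (0.0412), as did the difference between lines (0.0287 and 0.0379, against 0.102 with all libraries). Its mean log2 fold change of -0.01 turned to 0.01 after quantile normalization. CCND2 had a signal of 0 to 0.275 in all 12 libraries and was not tested. CCND1 made up 52.5 ± 0.6% of the summed D-type cyclin signal in SSP-25 with LKB1 siRNA and 42.0 ± 2.13% with control siRNA (SD, n = 2 each). That share was 69.6 ± 0.405% against 66.1 ± 1.69% in HuH-28, and 85.2 ± 0.0952% against 84.5 ± 0.709% in RBE (SD, n = 2 each).

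CCNE1 and CCNE2 both encode activators of CDK2, and their mRNAs both fell in HuH-28 but did not move together in RBE or SSP-25. CCNE1 (chromosome 19, forward strand, 29811898 to 29824308) had signals of 365.1 and 365.9 in HuH-28 with LKB1 siRNA against 455.4 and 474.0 with control siRNA. In RBE it had 268.6 and 268.0 against 213.4 and 224.4, and in SSP-25 91.2 and 99.1 against 72.8 and 69.3. The libraries of the 2 siRNAs were separate in every line, in one direction in HuH-28 and in the other in RBE and SSP-25. In HuH-28 CCNE1 fell by 0.35 on the log2 scale (SE 0.06, limma adjusted p = 0.00286). It rose by 0.29 in RBE (SE 0.06, limma adjusted p = 0.00456) and by 0.42 in SSP-25 (SE 0.06, limma adjusted p = 0.000536). The effect differed between lines (limma's F test, adjusted p = 0.000714), a difference that 28.2% of all genes also passed. Its average of 0.12 (limma adjusted p = 0.0183) mixes both directions, had an exact permutation p of 0.32, and lost its call after quantile normalization (limma adjusted p = 0.064), without RBE control replicate 1 (0.0531) or without SSP-25 LKB1 siRNA replicate 2 (0.0521).

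CCNE2, on chromosome 8, had signals of 257.4 and 235.0 in RBE with LKB1 siRNA against 355.3 and 376.0 with control siRNA. In HuH-28 it had 222.9 and 256.1 against 289.9 and 323.1, and in SSP-25 241.7 and 248.2 against 225.0 and 267.9. It fell by 0.57 on the log2 scale in RBE (SE 0.10, limma adjusted p = 0.00133) and by 0.36 in HuH-28 (SE 0.10, limma adjusted p = 0.0233). In SSP-25 the control libraries lay on both sides of the LKB1 siRNA libraries (log2 fold change of 0.00, limma adjusted p = 0.992). The call in HuH-28 was lost without LKB1 siRNA replicate 1 (limma adjusted p = 0.133) or control replicate 2 (0.128), and with that line fitted alone (0.0784). The test of the difference between lines (limma adjusted p = 0.0354) was lost without any 1 of the RBE libraries, either SSP-25 LKB1 siRNA library or SSP-25 control replicate 1 (0.0514 to 0.111), and without a trend in eBayes (0.0732). CCNE1 accounted for 52.2 ± 1.57% of the E-type cyclin signal in RBE with LKB1 siRNA and for 37.4 ± 0.0997% with control siRNA (SD, n = 2 each). CCNE2 fell by 0.31 averaged over the lines (limma adjusted p = 0.00125, exact permutation p = 0.028). In HuH-28, where both genes fell, the CCNE1 share was 60.5 ± 2.3% against 60.3 ± 1.16% (SD, n = 2 each).

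**Figure D2:**
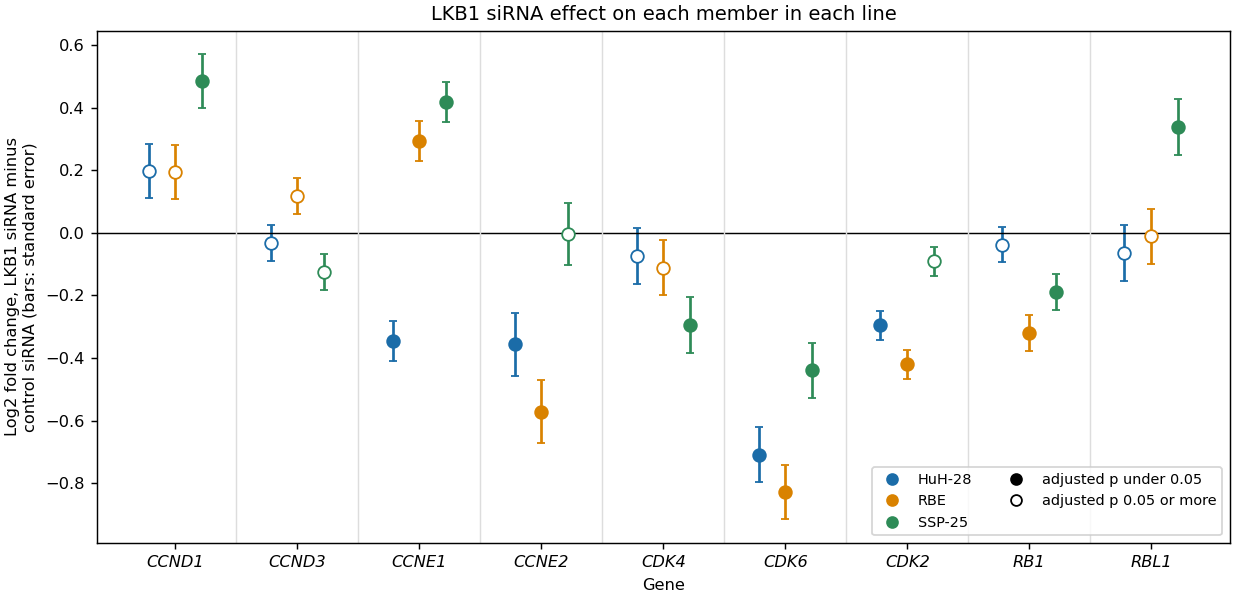
Log2 fold change of LKB1 siRNA minus control siRNA for the 9 tested members in HuH-28, RBE and SSP-25, with standard errors as bars, filled where the limma adjusted p is under 0.05. CDK6 is filled below 0 in each line, and CCNE1 is filled below 0 in HuH-28 and above 0 in RBE and SSP-25.

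CDK6 was the only member that passed in one direction in each of the 3 lines. Over all genes 7.44% fell and 6.94% rose in each line. CDK6 lies on the reverse strand of chromosome 7 from 92604921 to 92836594. In RBE its signal was 515.0 and 492.9 with LKB1 siRNA against 885.3 and 904.2 with control siRNA. In HuH-28 it was 270.5 and 241.3 against 445.3 and 392.0, and in SSP-25 316.4 and 355.1 against 431.8 and 478.8. Every LKB1 siRNA library was below every control library of its line. CDK6 fell by 0.83 on the log2 scale in RBE (SE 0.09, limma adjusted p = 5.27e-05), to 0.563 times the control. It fell by 0.71 in HuH-28 (limma adjusted p = 0.000286) and by 0.44 in SSP-25 (limma adjusted p = 0.00276). The average fall was 0.66 (SE 0.05, limma adjusted p = 2.73e-06), with the smallest possible exact permutation p of 0.0093. The test of the difference between lines did not pass (limma adjusted p = 0.083), but passed with the replicate block (0.00714).

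CDK4, the other kinase bound by D-type cyclins, was several times more abundant per length than CDK6 and moved less. Its signal was 2900.1 and 2765.1 in SSP-25 with LKB1 siRNA against 3581 and 3373 with control siRNA. In RBE it was 3432 and 3576 against 3905 and 3667, and in HuH-28 2523 and 2911 against 2630.2 and 3093, where the libraries overlapped. CDK4 fell by 0.30 on the log2 scale in SSP-25 (SE 0.09, limma adjusted p = 0.023). Without any 1 of the 4 SSP-25 libraries this call was lost (limma adjusted p = 0.0509 to 0.13), as it was without a trend in eBayes (0.0506). The log2 fold change was -0.07 in HuH-28 and -0.11 in RBE (limma adjusted p = 0.593 and 0.366). The average fall of 0.16 (limma adjusted p = 0.0243) had an exact permutation p of 0.046. Its call was lost without LKB1 siRNA replicate 1 or control replicate 2 of HuH-28, without replicate 1 of either siRNA in RBE, or without LKB1 siRNA replicate 2 or control replicate 1 of SSP-25 (limma adjusted p = 0.0515 to 0.067), and without a trend (0.051). The difference of the effect between lines did not pass (limma's F test, adjusted p = 0.342), but passed with the replicate block (0.0443). CDK6 made up 12.6 ± 0.66% of the summed CDK4 and CDK6 signal in RBE with LKB1 siRNA and 19.1 ± 0.919% with control siRNA (SD, n = 2 each). In HuH-28 it made up 8.67 ± 1.43% against 12.9 ± 2.28%, and in SSP-25 10.6 ± 1.09% against 11.6 ± 1.18% (SD, n = 2 each).

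CDK2, the kinase of the E-type cyclins, had signals of 965.4 and 987.5 in RBE with LKB1 siRNA against 1293 and 1321 with control siRNA. In HuH-28 it had 563.0 and 549.6 against 702.7 and 663.9. In SSP-25 it had 1333.5 and 1300.2 against 1428 and 1378, so the libraries were separate in each line. CDK2 fell by 0.42 on the log2 scale in RBE (SE 0.05, limma adjusted p = 7.23e-05) and by 0.30 in HuH-28 (SE 0.05, limma adjusted p = 0.00118), the second call being lost with that line fitted alone (0.0554). In SSP-25 its log2 fold change was -0.09 (limma adjusted p = 0.151). Under the alternatives other than leaving out a library, it ran there from -0.097 to -0.0056, so the size of this difference depends on the processing. Averaged over the lines CDK2 fell by 0.27 (limma adjusted p = 1.74e-05, exact permutation p = 0.0093). The effect differed between lines (limma's F test, adjusted p = 0.0137), though not without SSP-25 LKB1 siRNA replicate 1 (0.0542) or SSP-25 control replicate 2 (0.0523).

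**Figure D3:**
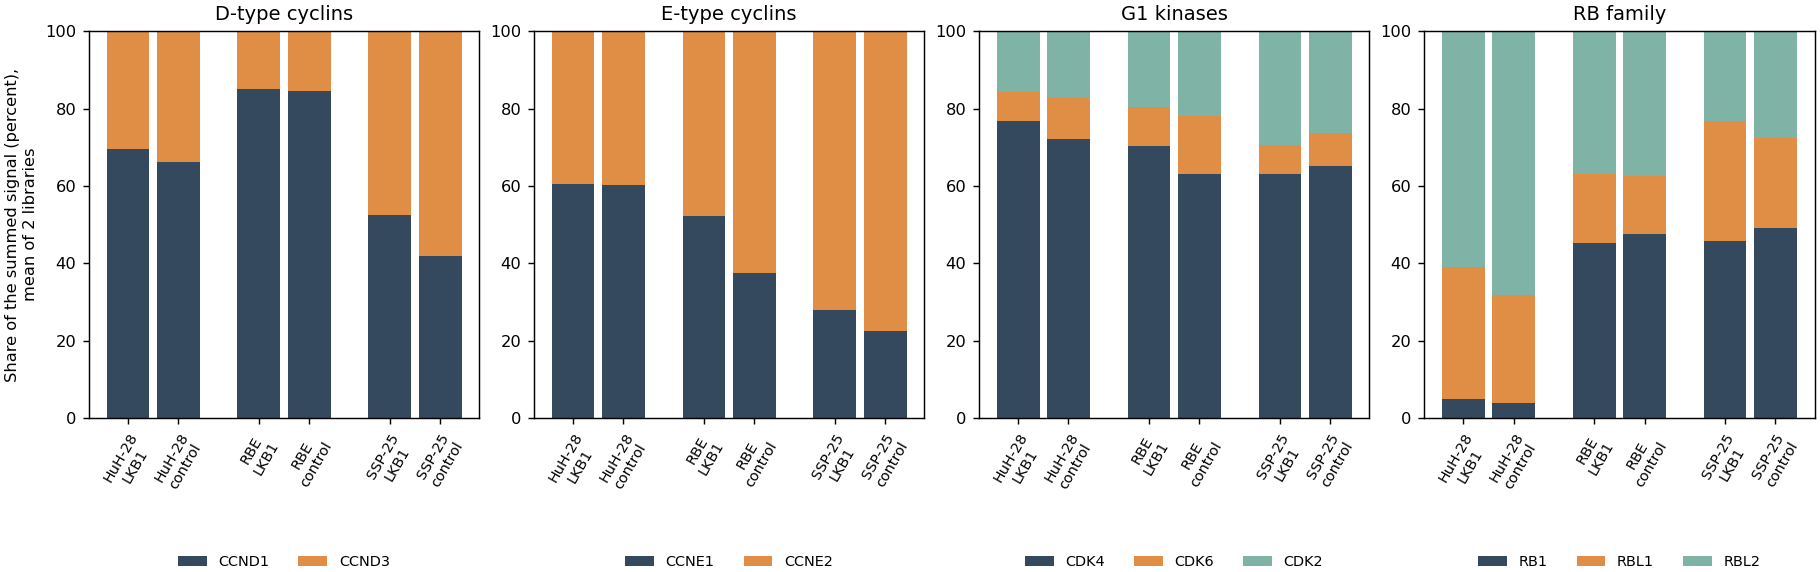
Share of each gene in the summed signal (percent, mean of 2 libraries) of the D-type cyclins without CCND2, the E-type cyclins, the G1 kinases and the RB family, by line, with LKB1 siRNA left of control siRNA. RB1 makes up 4.94% and 3.97% of the RB family signal in HuH-28 and over 45% in RBE and SSP-25.

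RB1, the retinoblastoma protein gene (chromosome 13, forward strand, 48303726 to 48599436), had by far the lowest signal of the RB family in HuH-28. There it was 38.0 and 38.4 with LKB1 siRNA against 40.1 and 38.4 with control siRNA. In RBE it was 695.3 and 658.0 against 825.3 and 864.1, and in SSP-25 541.2 and 550.1 against 613.8 and 630.5. RB1 fell by 0.32 on the log2 scale in RBE (SE 0.06, limma adjusted p = 0.00131) and by 0.19 in SSP-25 (SE 0.06, limma adjusted p = 0.0215). The SSP-25 call was lost without any 1 of the SSP-25 libraries (limma adjusted p = 0.0594 to 0.111) and after quantile normalization (0.137). In HuH-28 the log2 fold change was -0.04 (limma adjusted p = 0.666). Averaged over the lines RB1 fell by 0.18 (limma adjusted p = 0.000904, exact permutation p = 0.019). The difference between lines did not pass (limma's F test, adjusted p = 0.0578), but passed with a pseudocount of 10 (0.0396) or median-ratio size factors (0.0441).

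RBL1, which binds repressor E2Fs and whose promoter carries the E2F matches shown above, differed from RB1. In SSP-25 its signal was 383.2 and 361.2 with LKB1 siRNA against 289.2 and 299.6 with control siRNA. It rose there by 0.34 on the log2 scale (SE 0.09, limma adjusted p = 0.0121), a call lost without LKB1 siRNA replicate 1 (0.0802) or control replicate 1 (0.07). In RBE it was 275.7 and 256.1 against 274.7 and 261.2, and in HuH-28 273.5 and 254.8 against 303.7 and 251.1, with overlapping libraries in both. The test of the difference between lines did not pass for RBL1 (limma adjusted p = 0.0622), but passed with the replicate block (0.0193), after quantile normalization (0.0463) and without HuH-28 control replicate 1 (0.0475) or 2 (0.0119). The average of 0.09 (limma adjusted p = 0.186) passed without HuH-28 control replicate 1 (0.0228). RBL2, the remaining pocket protein gene, fell in every line, with log2 fold changes of -0.35 in SSP-25, -0.27 in RBE and -0.51 in HuH-28. The RBE call was lost without either LKB1 siRNA library or control replicate 1 of that line (limma adjusted p = 0.052 to 0.0836). RBL1 made up 31.2 ± 0.878% of the RB family signal in SSP-25 with LKB1 siRNA and 23.2 ± 0.00751% with control siRNA (SD, n = 2 each). Its share was also larger with LKB1 siRNA in the lines where RBL1 did not rise. It was 34.1 ± 0.231% against 27.9 ± 0.673% in HuH-28, and 17.8 ± 0.402% against 15.1 ± 0.501% in RBE (SD, n = 2 each).

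The largest difference between lines exceeded the largest siRNA effect in size for each tested member but RBL1, though by little for CCNE2 (0.57 in both). With control siRNA, the log2 difference of RB1 was -4.41 for HuH-28 minus RBE (SE 0.06, limma adjusted p = 2.5e-12). It was -3.97 for HuH-28 minus SSP-25 (limma adjusted p = 1.05e-11) and 0.44 for RBE minus SSP-25 (limma adjusted p = 4.48e-05). CCNE1 was highest in HuH-28, with HuH-28 higher than RBE by 1.08 and than SSP-25 by 2.70, and RBE higher than SSP-25 by 1.62. CCND1 was highest in RBE, with differences of -2.02 for HuH-28 minus RBE and 1.44 for RBE minus SSP-25. CCND3 was highest in SSP-25, with -2.01 for HuH-28 minus SSP-25 and -1.46 for RBE minus SSP-25. CDK2 was lowest in HuH-28 (log2 differences of -0.94 from RBE and -1.04 from SSP-25), and RBE and SSP-25 did not differ beyond their spread (-0.10, limma adjusted p = 0.0733). CDK6 was highest in RBE, and its levels in SSP-25 and HuH-28 did not differ beyond their spread (HuH-28 minus SSP-25 -0.12, limma adjusted p = 0.231). CDK4 was lowest in HuH-28 (differences of -0.41 from RBE and -0.29 from SSP-25, the second not passing without HuH-28 control replicate 1, adjusted p = 0.122, or SSP-25 control replicate 1, 0.0884), and RBE and SSP-25 did not differ beyond their spread as deposited (0.12, limma adjusted p = 0.24), though RBE was higher by 0.33 after quantile normalization (0.000837). RBL1 passed between no pair of lines, except for HuH-28 minus SSP-25 without HuH-28 control replicate 1 (-0.23, limma adjusted p = 0.0287). The summed fibroblast markers were 43607 to 45085 in HuH-28, 55.7 to 59.0 in RBE and 6607 to 7019 in SSP-25 with control siRNA, and their part in these differences was not tested. CCNE2 ran from RBE over HuH-28 to SSP-25, with all 3 differences past the test. The difference of HuH-28 from RBE (-0.26, limma adjusted p = 0.0388) did not pass without HuH-28 control replicate 1 (0.209), either RBE control library (0.0651 and 0.163) or either SSP-25 LKB1 siRNA library (0.0539 and 0.054), nor without a trend (0.0662). That from SSP-25 did not pass without HuH-28 control replicate 2 (0.104) or SSP-25 control replicate 1 (0.143), nor after quantile normalization (0.0662).

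Of the 9 members, 1 was higher and 7 lower in HuH-28 than in RBE, against 39.2% and 38.1% of all genes. For HuH-28 minus SSP-25 2 were higher and 5 lower (37.9% and 36.8% of all genes), and for RBE minus SSP-25 5 were higher and 1 lower (35.9% and 37.2%). The largest difference of the members between lines was -4.41, for RB1, and their largest siRNA effect -0.83, for CDK6.

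**Figure D4:**
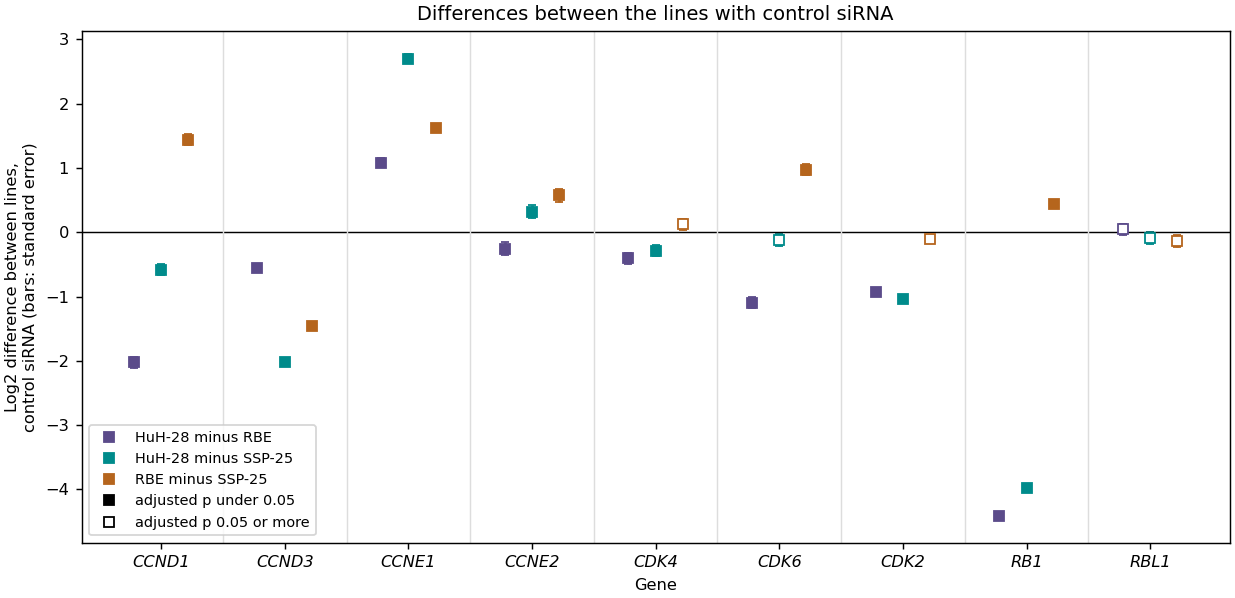
Log2 differences between lines with control siRNA for the 9 tested members, with standard errors as bars, filled where the limma adjusted p is under 0.05. RB1 lies at -4.41 and -3.97 for HuH-28 minus RBE and HuH-28 minus SSP-25, CCNE1 lies between 1.08 and 2.70, and RBL1 is open near 0.

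Genes around the members on the G1 to S path mostly had lower signal with LKB1 siRNA. Over all genes 25.1% fell and 27.3% rose on average over the lines, and the counts of each list stand against these shares. Of the 9 E2F and DP factor genes tested 8 fell and 1 rose on average over the lines. E2F1, an activator of S phase genes, was 358.2 and 336.8 in RBE with LKB1 siRNA against 654.9 and 607.9 with control siRNA, and its average fall was 0.60 on the log2 scale (limma adjusted p = 8.36e-07). E2F4, a repressor partner of RBL1 and RBL2, fell by 0.51 and the dimer partner gene TFDP2 by 0.57 on average. E2F5, which also partners RBL2, rose by 0.47 on average and passed in each line. E2F5 and the genes given below as lone exceptions were chosen after their values were seen.

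Of 20 E2F targets of S phase, 15 fell and 0 rose on average, with 18 falls in RBE, 9 in HuH-28 and 8 in SSP-25, where 18.5%, 15.5% and 21.1% of all genes fell. TK1 in HuH-28 (0.18) and CDC6 in SSP-25 (0.20) were the 2 rises in single lines. MCM6, a subunit of the replicative helicase, had signals of 895.5 and 866.5 in RBE with LKB1 siRNA against 1465 and 1428 with control siRNA. RRM2, a ribonucleotide reductase subunit, fell by 0.69 in RBE (limma adjusted p = 1.33e-06) and had a log2 fold change of 0.00 in SSP-25. All 9 mitotic cyclin and kinase genes fell on average, with a median of -0.51. AURKA, a kinase of spindle assembly, fell by 0.71 on average (limma adjusted p = 2.62e-08), and CCNB2, a B-type cyclin, by 0.67. PLK1, a further mitotic kinase, rose by 0.20 in SSP-25. The median log2 fold change of the S phase targets was -0.49 in RBE, -0.17 in HuH-28 and -0.13 in SSP-25. The mitotic median was -0.83 in RBE, -0.42 in HuH-28 and -0.41 in SSP-25. Whether these lists moved together with CDK6 and CDK2 was not tested, nor was the part of the share of cycling cells in the members' changes.

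**Figure D5:**
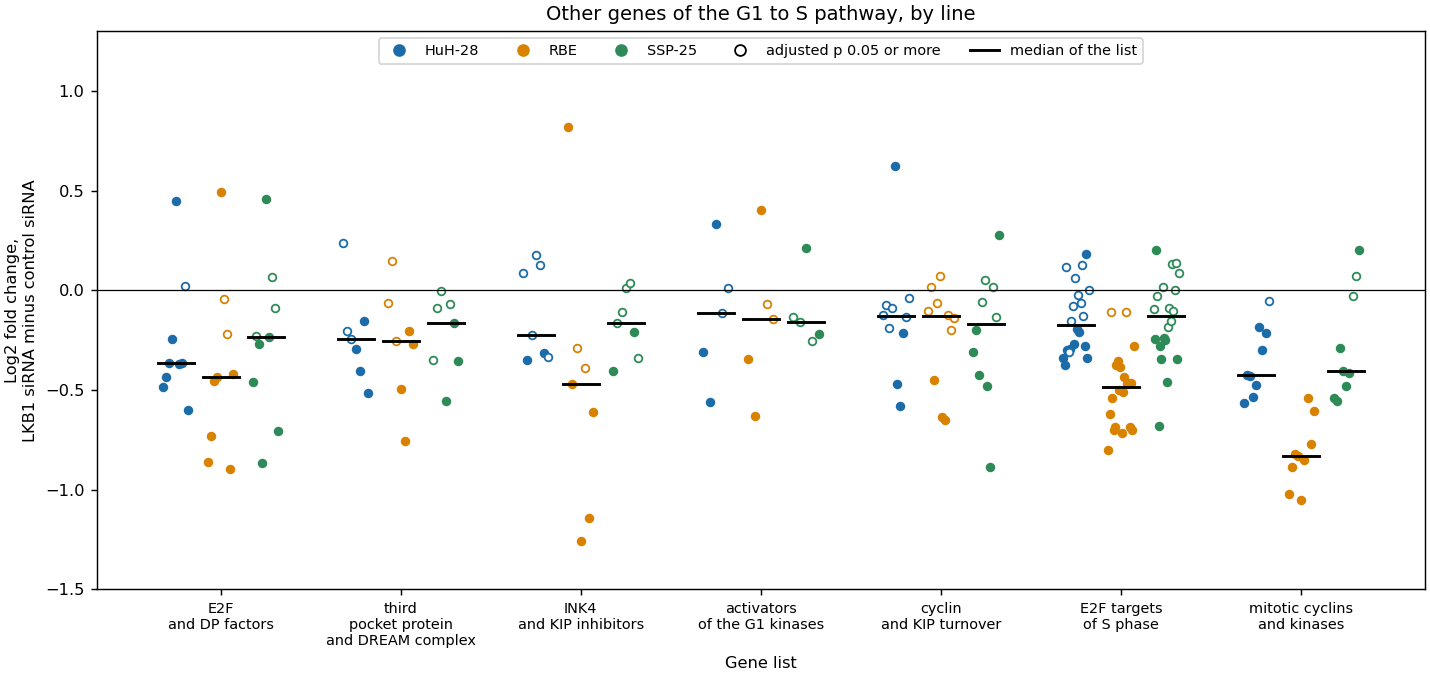
Log2 fold change of LKB1 siRNA minus control siRNA for each tested gene of 7 lists, by line, with filled points where the limma adjusted p is under 0.05 and bars for the list median. The mitotic genes lie lowest in RBE, with a median of -0.83, and most S phase targets lie below 0 there.

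Among inhibitors of the G1 kinases 3 of 7 fell and 1 rose on average, against 25.1% and 27.3% of all genes. CDKN2C, an INK4 inhibitor of CDK4 and CDK6, fell in each line, with signals of 195.4 and 200.1 in RBE with LKB1 siRNA against 452.5 and 421.9 with control siRNA. CDKN1B (p27) fell by 0.33 and CDKN2D by 0.43 on average. CDKN1A (p21), a KIP inhibitor, was the rise and passed upward in RBE, with signals of 7526 and 8044 there with LKB1 siRNA against 4504 and 4328 with control siRNA, while it fell by 0.40 in SSP-25. CDKN2A, whose locus encodes p16, was also chosen after its values were seen, and it was highest in HuH-28. Its signal was 1729.7 and 1765.2 in HuH-28 with LKB1 siRNA against 1528 and 1565.5 with control siRNA, 324.5 and 339.6 against 321.3 and 336.2 in SSP-25, and 0 to 1.53 in RBE. CDKN2A passed as lower in RBE, at signals too low to be read as a change.

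Of 7 genes of the DREAM complex and the remaining pocket protein, 4 fell and 0 rose on average, among them RBL2, MYBL2 (fall of 0.41) and LIN9 (fall of 0.45). Of 5 activators of the G1 kinases 2 fell and 1 rose, against 25.1% and 27.3% of all genes. CDC25A, the phosphatase that activates CDK2, fell by 0.45 and CCNH, the cyclin of the CDK-activating kinase, by 0.26. CDC37, a chaperone partner for CDK4 and CDK6, rose by 0.32. Of 10 tested genes of cyclin and KIP turnover, 6 fell and 1 rose. FBXW7, the ubiquitin ligase subunit that recognises cyclin E, fell by 0.70 on average, with signals of 95.4 and 89.3 in SSP-25 with LKB1 siRNA against 175.1 and 166.5 with control siRNA. FBXO4 fell by 0.53. DDB1, an adaptor of CUL4 ligases, rose by 0.25 on average and by 0.62 in HuH-28. TFDP1, CKS1B and FBXO31 were not analysed here.

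Over the 12 libraries, and among 12212 genes, the genes most like each member by Pearson r of log2 signal mainly followed the lines, since libraries of a line share their levels. RB1 was closest to DSG2 and PRTFDC1 (0.999 each), CCND3 to PREX1 (0.999) and GLA (0.997), and CCND1 to DSP and AKAP13 (0.995 each). CCNE1 was closest to KDSR (0.993) and PLXDC2 (0.992), CDK6 to ANO6 (0.993) and GPD2 (0.988), and CDK2 to KLRC3 and AZIN1 (0.989 each). The members with small differences between lines had lower values. CDK4 was closest to LOC284385 (0.968) and LAP3 (0.964), RBL1 to ABHD2 (0.940) and DYNC2H1 (0.939), and CCNE2 to METTL9 (0.896) and MIS18A (0.880).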

How the data were processed

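Per the labels, total RNA was taken 48 h after siRNA transfection, and libraries were made with the TruSeq RNA V2 kit, which does not mark strand. The authors deposited a signal for each gene and library, in normalized reads per kilobase. The methods of the paper name NextGENe and RefSeq mRNA, whereas TopHat 1.2.0, edgeR and hg19 stand in the submitters' processing notes. The tool behind the deposited values is not given in the sources used. Read counts and depth were not recovered, so no counting intervals are given.

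Of 18815 rows, 28 with a date for a symbol and 23 repeats were left out. Values under 1e-07 were set to 0. Genes that reached a signal of 1 in 2 or more libraries entered limma 3.58.1 (R 4.3.3) as log2(signal + 0.5). The model had 6 group means, 6 residual degrees of freedom and eBayes with a trend, and p-values were Benjamini-Hochberg adjusted over 16120 genes. The fit was tested on simulated data. Fold changes on this scale understate those of low signals. For the mean of the lines, members also had a two-sided exact permutation test within lines (216 arrangements).

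The members and gene lists were chosen with earlier results of these data known. Named were every member, STK11, RBL2, in each list up to 3 genes with the smallest p on average, and the 2 genes most like each member. Other genes of these lists given with values were chosen after those values were seen. The alternatives changed the pseudocount, the filter, the scaling, the threshold or the trend, fitted each line alone, added a replicate block, or left out each library. A biliary marker was left out of its list and is not reported here.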

Additional observations from a re-analysis of the deposited data

Results flagged for a closer look

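The effect of LKB1 siRNA differed between the 3 lines for 3 of the 9 tested members by limma's F test over all genes. CCNE1 had an adjusted p of 0.000714, with fold changes of -0.35 (log2) in HuH-28 but 0.29 in RBE and 0.42 in SSP-25. CDK2 had an adjusted p of 0.0137, with -0.30, -0.42 and -0.09 in the same order of lines. CCNE2 had an adjusted p of 0.0354, with -0.36, -0.57 and 0.00. Over all genes 28.2% passed this test. With the replicate number as a block CCND1 (0.0275), CDK4 (0.0443), CDK6 (0.00714) and RBL1 (0.0193) passed as well, which makes 7, and CCNE2 did not pass without a trend in eBayes (0.0732). Groups of 2 libraries are too small for a test of single outlying libraries.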

How the results depend on the processing

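Of 1818 values of single genes under the alternatives, 1728 kept their direction and their side of the threshold, 50 lost the call, 23 gained one and 17 changed sign, all of them in differences that had not passed. The falls of CDK6 in each line and of STK11 kept their calls in every alternative fit that left the threshold unchanged. With an absolute log2 fold change above 1 as well, the members called with LKB1 siRNA were 0 in each line and on average, with 414 genes higher and 238 lower in HuH-28, 893 and 377 in RBE, 986 and 367 in SSP-25, and 502 and 175 on average. Between lines 3580 genes were then higher and 3175 lower for HuH-28 minus RBE, 3328 and 2802 for HuH-28 minus SSP-25, and 3047 and 2986 for RBE minus SSP-25, with 3 members lower, 1 higher and 3 lower, and 2 higher in these comparisons. After quantile normalization CCND3 on average was 0.01081, RBL1 and RBL2 in HuH-28 minus RBE were -0.08204 and -0.1196, and CDK2 and CDK4 in RBE minus SSP-25 were 0.1022 and 0.3289, while 1 member was higher on average and 1 in HuH-28 minus SSP-25. With each line fitted alone, 1225 genes were higher and 1177 lower in HuH-28, with 2 members lower there, as CDK2 and CCNE2 no longer passed, and 3 higher in RBE.

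Without 1 library, which assumes that the lone library of its group varies like the other groups, log2 fold changes were -0.1905 to 0.04313 for CDK4, -0.1112 to 0.04801 for CCND3 and -0.202 to 0.07184 for RBL1 in HuH-28. They were -0.06463 to 0.04145 for RBL1 in RBE, -0.1294 to 0.1218 for CCNE2 in SSP-25 and -0.04008 to 0.01298 for CCND3 on average. Differences between lines were -0.0929 to 0.181 for RBL1 and -0.09125 to 0.123 for RBL2 in HuH-28 minus RBE, and -0.2288 to 0.04504 for RBL1 in HuH-28 minus SSP-25. Members higher numbered 0 to 1 in HuH-28, 1 to 2 in HuH-28 minus SSP-25 and 1 to 3 on average, and members lower 1 to 4 in SSP-25. The cause of these changes was not tested.

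Replicates of one number deviated together in HuH-28 (correlation of deviations 0.432) but not in RBE (0.002) or SSP-25 (0.032), and the paper calls the numbers tests without saying whether one test was a shared day, so the main fit had no block. With the replicate number as a block, 1 member was higher in HuH-28 and 2 in RBE, since CCND1 passed there (limma adjusted p = 0.0218 and 0.0183). The difference between lines then passed for CCND1 (0.0275), CDK4 (0.0443), CDK6 (0.00714) and RBL1 (0.0193), and the block changed no other call of a member. Each group has 2 libraries and the depth is unknown, which limits small differences most.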

Other observations

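Words of 7 bases in 3′ UTRs were followed because an earlier analysis of these data had picked them, so their medians are descriptions. Across 11390 genes whose mean signal reached 20 and that have a 3′ UTR in GENCODE v29 (GRCh38), the median log2 fold change on average over the lines was 0.235 with GCAGTAC and -0.00428 without it. It was 0.114 with CAGTACA and -0.00403 without it, and -0.0565 with GAAGGAA and 0.0176 without it. Each word was absent from most genes: 5.47% of the 11390 held GCAGTAC, 9.31% CAGTACA and 21.7% GAAGGAA. Of the 9 tested members, 6 held none of the words. CDK6, which fell, held 1 GCAGTAC and 1 CAGTACA in a UTR of 10219 bases, and CDK4 and RBL1 held 1 GAAGGAA each. The sites are shown with their surroundings, the word in capitals, on the gene's strand.
CDK6 at UTR base 7952: agtgggaacagGCAGTACtgttgagagga
CDK6 at UTR base 2921: catagtaggacCAGTACAagaatgtccct
CDK4 at UTR base 245: tggctgccatgGAAGGAAgaaaagctgcc
RBL1 at UTR base 716: aatttaatattGAAGGAAggggttggttc
None of the 3 words was found in the 3′ UTRs scanned for CCND1, CCND3, CCNE1, CCNE2, CDK2 and RB1. CDK6 had the largest fall of the members. Its scanned UTR held GCAGTAC and CAGTACA, and genes with either word had the higher median. The medians made no allowance for UTR length, which was 10219 bases for CDK6, so nothing is read from this pairing. Whether the words had a part in the change of any member was not tested. Which UTR forms the cells expressed was not examined.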
